A study of Homo sapiens with 2 samples.

Results

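Of the 49746 m6A peaks listed for Huh-7 cells, 5749 peaks lay in exons of non-coding transcripts, in 3517 host genes. They are all the peaks whose deposited region annotation names a non-coding RNA exon, and no fold, p-value or level took part in choosing them. The remaining peaks comprised 24488 in 3' UTRs, 10286 in coding exons, 6118 in 5' UTRs, 2951 in introns and 154 under other annotations. Huh-7 is an established human liver cancer line, grown here without treatment and labelled wild type, though the shared protocol text speaks of adipose RNA. Of these cells 1 library was made from RNA fragments pulled down with an m6A antibody (the IP) and 1 from fragments that were not (the input), both after removal of ribosomal RNA. The comparison asked where IP reads exceeded input reads. With 1 library of each kind no value has a replicate check and no test between conditions is possible. The authors computed each peak's fold of IP over input and its adjusted p. Levels are their FPKM of the input, fragment counts scaled by gene length and library size, so the read depth is unknown.

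N6-methyladenosine (m6A) is placed on RNA in the nucleus by the METTL3 and METTL14 methyltransferase complex, mostly at an adenosine in a GGACU-like context, and is read by proteins of the YTH family. In mRNAs it is known to gather near stop codons and in 3' UTRs. Long non-coding RNAs (lncRNAs), transcripts without a recognised protein product, carry it too, among them the nuclear RNAs MALAT1, NEAT1 and KCNQ1OT1. An antibody peak marks a stretch of RNA and not a single adenosine.

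The gene starts and small RNAs that lay inside the peaks are shown first, since they place the peaks on named sequence. RefSeq windows of 300 bases (250 before to 50 after a gene start, GRCh38.p14) fell wholly inside 114 of the peaks that were at most 2000 nt long, and 139 such windows were found. The motif GGACT, the DNA form of the most common m6A context, occurred on the strand of the peak in 38 of them, or 27.3% (95% exact Clopper-Pearson interval 20.1 to 35.5). Where the gene and the peak were on the same strand the motif was in 7 of 41 windows (17.1%, 7.15 to 32.1), and where they were on opposite strands in 31 of 98 (31.6%, 22.6 to 41.8), with overlapping intervals. Over all 35116 windows the share was 25.3% on the gene's own strand, inside all 3 intervals. On the strand opposite the peak the motif occurred in 40 of the 139 windows, and on either strand in 50.4% of them against 44.2% of all windows. These intervals, here and below, cover counting error only, since peaks of a gene share their RNA. The windows of 3 non-coding genes whose start lay inside their own strand's peak, at 1 FPKM or more and an adjusted p under 0.001, are printed along the strand of the peak with GGACT in capitals. They were chosen after their values were seen, to show a start with 1 match, one with 3 and one with none, and are not in proportion to the share of same-strand windows that hold the motif.

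LINC00857, chr10:80207460-80207759, plus strand: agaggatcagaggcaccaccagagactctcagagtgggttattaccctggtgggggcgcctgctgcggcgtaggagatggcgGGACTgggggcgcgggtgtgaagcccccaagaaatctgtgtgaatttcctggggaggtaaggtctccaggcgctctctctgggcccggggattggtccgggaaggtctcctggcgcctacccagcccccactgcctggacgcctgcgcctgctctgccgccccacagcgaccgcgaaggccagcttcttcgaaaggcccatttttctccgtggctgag
ANXA2R-AS1, chr5:43041884-43042183, plus strand: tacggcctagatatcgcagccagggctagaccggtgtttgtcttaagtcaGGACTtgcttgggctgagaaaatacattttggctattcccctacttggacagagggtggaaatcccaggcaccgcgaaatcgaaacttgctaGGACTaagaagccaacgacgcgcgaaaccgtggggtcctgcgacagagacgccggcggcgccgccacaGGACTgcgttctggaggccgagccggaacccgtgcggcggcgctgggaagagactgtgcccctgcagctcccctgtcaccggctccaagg
FGD5-AS1, chr3:14947844-14948143, minus strand: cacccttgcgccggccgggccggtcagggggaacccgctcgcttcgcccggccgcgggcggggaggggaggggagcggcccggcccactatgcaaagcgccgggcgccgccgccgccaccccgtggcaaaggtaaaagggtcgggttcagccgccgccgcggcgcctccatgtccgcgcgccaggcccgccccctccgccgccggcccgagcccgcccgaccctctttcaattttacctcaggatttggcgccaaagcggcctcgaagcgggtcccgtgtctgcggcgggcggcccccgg

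The LINC00857 peak had a fold of 7.40 (adjusted p = 3.11e-06) at 1.27 FPKM. The peak over the ANXA2R-AS1 start, which the files place in the gene AC025171, had a fold of 4.71 (adjusted p = 3.27e-12) at 1.96 FPKM. The FGD5-AS1 peak had a fold of 3.08 (adjusted p = 2.90e-10) at 26.7 FPKM, with no GGACT in the window. A match is a description of the letters in the window and does not place a methylated adenosine.

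MicroRNAs (miRNAs) are short regulators cut from hairpins in longer primary transcripts, and bases 2 to 8 of the mature RNA, the seed, pair with targets. Of the 1560 RefSeq hairpins, 19 lay wholly inside 15 non-coding exon peaks on the same strand. Peaks of at most 2000 nt held 8 of these 19. Hairpins absent from that set were not counted, among them MIR3613, which lay inside its peak. GGAC, the start of the motif, occurred in 4 of the 19 hairpins (21.1%) against 27.3% of all 1560 RefSeq hairpins. The mature sequences below are grouped by shared seed, which is in capitals. They include miR-181b-5p and miR-122-5p, which are not from the 19 hairpins.

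hsa-miR-302a-3p: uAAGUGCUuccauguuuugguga
hsa-miR-302b-3p: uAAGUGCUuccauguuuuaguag
hsa-miR-302c-3p: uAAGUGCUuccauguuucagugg
hsa-miR-302d-3p: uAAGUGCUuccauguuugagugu
hsa-miR-15a-5p: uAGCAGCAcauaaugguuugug
hsa-miR-16-5p: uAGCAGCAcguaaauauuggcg
hsa-miR-181a-5p: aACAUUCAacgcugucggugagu
hsa-miR-181b-5p: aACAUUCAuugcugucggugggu
hsa-miR-367-3p: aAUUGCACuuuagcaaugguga
hsa-miR-194-5p: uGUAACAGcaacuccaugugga
hsa-miR-4453: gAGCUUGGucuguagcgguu
hsa-miR-122-5p: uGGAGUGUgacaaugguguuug

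The 4 miR-302 hairpins, known from embryonic stem cells, and the MIR367 hairpin lay together in 1 peak listed under MIR302B, with a fold of 2.26 and an adjusted p of 0.0229. That peak overlapped a coding gene and a listed peak on the other strand. No level was listed for MIR302B or for MIR302CHG, the longer gene around it. MIR15A and MIR16-1, whose products share a seed and are known to restrain BCL2, shared a peak with a fold of 1.84 and an adjusted p of 0.0524. The peak that held both MIR181A2 and MIR181B2 spanned 39879 nt and had a fold of 2.30 (adjusted p = 0.000587). MIR194-2, a liver and gut miRNA gene, lay in a 651-nt peak of 3.03-fold (adjusted p = 1.62e-14), and MIR4453 in a 1226-nt peak of 5.22-fold (adjusted p = 1.71e-09). These peaks measure fragments of whichever RNA covers the region, and the mature miRNAs were not measured.

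MIR122 makes the most abundant miRNA of normal liver. Its peak, at chr18:58446213-58451108 on the plus strand, ended inside the hairpin (chr18:58451074-58451158), so 35 of the 85 hairpin bases and 21 of the 22 bases of miR-122-5p lay in the peak. The hairpin is printed with the bases inside the peak in capitals.

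MIR122 hairpin: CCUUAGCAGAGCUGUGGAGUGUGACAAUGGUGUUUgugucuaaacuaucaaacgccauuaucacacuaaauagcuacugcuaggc

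This peak had a fold of 2.73 (adjusted p = 8.33e-146). It lay inside the span of MIR122HG, the primary transcript of MIR122, which was at 16.7 FPKM, while the level listed for MIR122 itself was 0.000769 FPKM. The 2 peaks listed under MIR122HG were weaker, with folds of 1.50 and 1.54.

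The peaks in non-coding exons had higher folds than the other classes and lay in genes of lower level. Their median fold was 3.00 (95% interval 2.95 to 3.05), against 2.09 in 3' UTRs, 2.32 in 5' UTRs, 1.84 in coding exons and 2.17 in introns. A fold of 2 or more was listed for 80.3% of them, where 56.4% of all listed peaks reach it, and a fold of 4 or more for 2074, or 36.1% (34.8 to 37.3), where the share over all listed peaks is 19.7%. An adjusted p under 0.001 was listed for 2458, or 42.8% (41.5 to 44.0), beside 44.1% of all listed peaks. Both a 2-fold difference and that adjusted p were reached by 2204 peaks, 38.3% against 31.5% of all listed peaks.

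The host genes had a median input level of 0.689 FPKM (0.652 to 0.741), over the 2578 hosts with a listed level, and the hosts of 3' UTR peaks had 4.65 FPKM. A level was listed for the host of 80.9% of the non-coding exon peaks and of 98.8% of the 3' UTR peaks. Hosts at 1 FPKM or more held 37.2% of the non-coding exon peaks and 90.2% of the 3' UTR peaks.

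Set beside 3' UTR peaks of genes at like levels, the higher fold was not found at every level. Below 0.1 FPKM the non-coding exon peaks had a median fold of 2.83 (2.65 to 3.12) and the 3' UTR peaks 4.04 (3.19 to 5.45). From 0.1 to 1 FPKM the medians were 3.99 (3.79 to 4.17) and 4.39 (4.14 to 4.58), with intervals that just overlapped. From 1 to 5 FPKM the order turned, with 2.62 (2.54 to 2.72) in non-coding exons and 2.33 (2.31 to 2.35) in 3' UTRs. From 5 to 20 FPKM it was 1.97 (1.89 to 2.06) against 1.78 (1.76 to 1.79). At 20 FPKM or more, where 104 non-coding exon peaks were left, it was 1.69 (1.56 to 2.04) against 1.60 (1.58 to 1.61), with overlapping intervals. In both classes the median fold fell from the group of 0.1 to 1 FPKM upward.

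**Figure D1:**
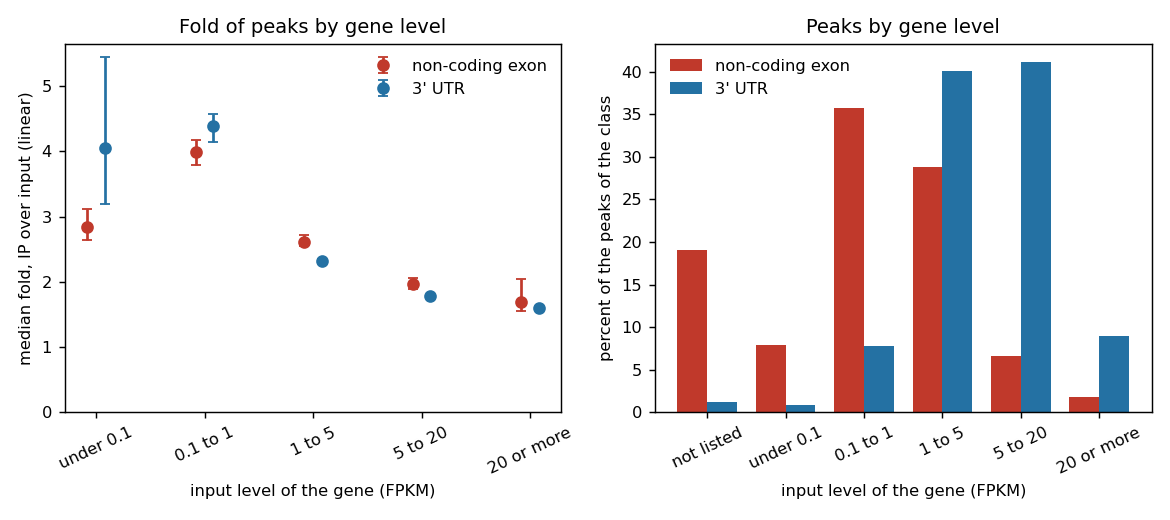
Left, median fold of IP over input of non-coding exon peaks and 3' UTR peaks by the input level of their gene in FPKM, with 95% order-statistic intervals. Right, the percent of each class's peaks at each level, where a median of 2.62 against 2.33 at 1 to 5 FPKM stands beside the larger share of non-coding exon peaks in genes of low or no listed level.

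By deposited transcript biotype, 4151 of the peaks (72.2%) lay in lncRNAs, in 2425 genes. Processed pseudogenes, the copies of mRNAs inserted back into the genome, held 631 peaks, and other pseudogenes held 231. Processed transcripts held 393, TEC transcripts (to be experimentally checked) 148, retained-intron transcripts 106 and small RNA genes 89. The median fold was 3.02 (2.97 to 3.10) in lncRNAs and 3.16 (2.95 to 3.40) in processed pseudogenes, with overlapping intervals. It was 2.55 (2.30 to 2.87) in TEC transcripts, 2.58 (2.21 to 2.95) in retained-intron transcripts and 2.57 (2.24 to 2.96) in small RNAs. All of these intervals ended below that of lncRNAs, the last by a narrow margin. Their hosts had higher median levels, 0.869, 1.26 and 2.31 FPKM, against 0.578 FPKM in lncRNAs. At like levels the lncRNA median stayed above the TEC and retained-intron medians, but the intervals overlapped. From 0.1 to 1 FPKM lncRNAs had 3.94 (3.72 to 4.15), TEC transcripts 2.82 (2.23 to 4.12) and retained introns 3.17 (2.83 to 4.28). From 1 to 5 FPKM they had 2.64 (2.54 to 2.76), 2.34 (2.20 to 2.72) and 2.22 (1.97 to 3.22). Among the small RNAs, the 31 peaks of small nuclear RNAs (snRNAs) had a median of 4.16 (2.42 to 7.50) and the 25 peaks of small nucleolar RNAs (snoRNAs) 1.74 (1.59 to 2.70).

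**Figure D2:**
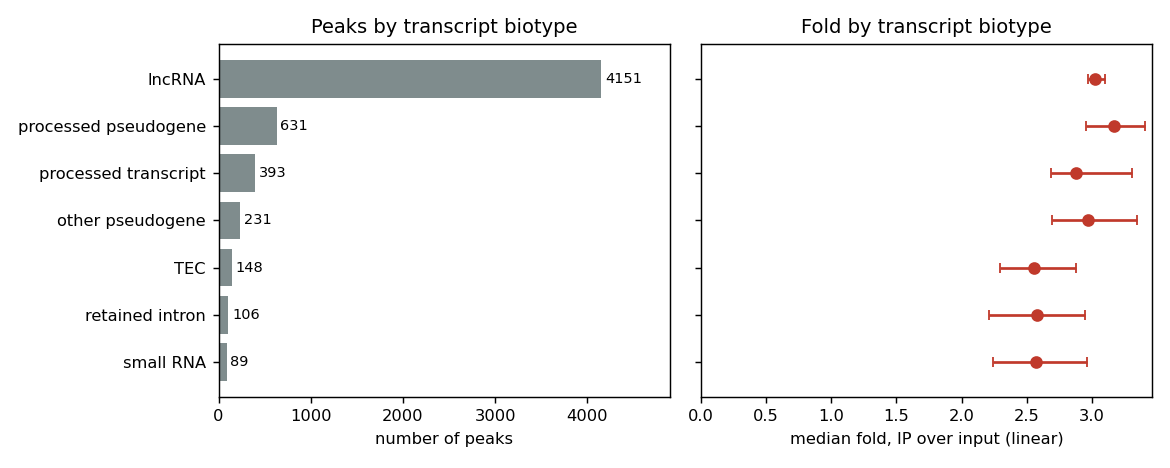
Number of non-coding exon peaks (left) and their median fold of IP over input with 95% order-statistic intervals (right) by transcript biotype. Long non-coding RNAs hold 4151 peaks, and their median of 3.02 lies beside 3.16 in processed pseudogenes and above 2.55 in TEC transcripts. The medians are not matched for host level.

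Most hosts carried a single non-coding exon peak: 2415 of 3517, or 68.7% (67.1 to 70.2). Counted over their own class, the share was 44.5% for hosts of 3' UTR peaks and 59.2% for those of coding exon peaks. It was higher for hosts of intron peaks, at 70.5%, and of 5' UTR peaks, at 81.5%. There were 123 hosts with 5 or more, which together held 947 peaks (16.5%), and 17 with 10 or more. Hosts with 1 peak had a median span of 2.59 kb and a median level of 0.596 FPKM. Those with 2 to 4 peaks had 9.83 kb and 0.829 FPKM, and those with 5 or more had 58.9 kb and 1.54 FPKM, so both length and level were higher with each step in number.

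KCNQ1OT1 and HELLPAR had the most peaks, with 59 each. KCNQ1OT1, an imprinted RNA transcribed antisense to the potassium channel gene KCNQ1 and known to silence its neighbours in cis, spans 91.7 kb (chr11:2608328-2699994) and had 6.76 FPKM. Its folds ran from 1.30 to 27.7 with a median of 1.68, and 19 of the 59 peaks had an adjusted p under 0.001. Along the RNA the folds were higher toward the 3' side of the marked stretch. The 32 peaks centred in the first 40 kb had log2 folds from 0.38 to 1.24 with a median of 0.60 and none was at 4-fold, while the 27 beyond it had a median of 1.66, a highest value of 4.79 and 9 peaks at 4-fold or more. These 9 all lay between 58.1 and 67.2 kb from the start. An adjusted p under 0.001 was listed for 11 of the 32 peaks and for 8 of the 27. The highest log2 fold among peaks with that adjusted p was 4.20, so the peak of 4.79 was not one of them. The last peak ended 67.2 kb from the start, and none was listed in the remaining part of the span. All 59 overlapped a listed peak of KCNQ1 on the other strand, one of which spans 187334 nt, and KCNQ1 itself was at 0.0458 FPKM.

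HELLPAR, a very long intergenic RNA on chromosome 12, spans 205 kb and had 1.56 FPKM. Its folds ran from 1.52 to 12.6 with a median of 2.33. Its peaks were spread over the gene, 29 in the first 75 kb with a median log2 fold of 1.13 and 30 beyond with a median of 1.24. An adjusted p under 0.001 was listed for 10 of the 59, of which 8 lay in the first 75 kb. Only 1 of its peaks overlapped a listed peak on the other strand.

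NEAT1, the RNA that builds nuclear paraspeckles, had 11 peaks and 27.1 FPKM, and its 5' part stood out. From the 5' end, the first 3 peaks had log2 folds of 1.83, 0.96 and 0.63, all lay within the first 5.90 kb and all had an adjusted p under 0.001. The other 8, between there and the end of the 22.8-kb span, had log2 folds from 0.41 to 0.69, and none of them had an adjusted p under 0.001. A further peak in that part (chr11:65444099-65444548), listed under MIR612 and not counted here, had a log2 fold of 0.66 (adjusted p = 0.000106).

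MALAT1, an abundant RNA of nuclear speckles at 360 FPKM, was covered by 7 peaks that took up 86.6% of its 8.83 kb, all with an adjusted p under 0.001. In order from the 5' end their log2 folds were 1.59, 1.40, 0.70, 0.44, 0.48, 0.43 and 0.58. The first pair, ending 5.65 kb from the start, were the strongest.

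NORAD, a cytoplasmic RNA known to bind Pumilio proteins, had 59.2 FPKM and 5 peaks. Its first peak, over the first 1.70 kb, had a log2 fold of 2.38, or 5.20-fold, and the others had 0.63, 0.35, 0.90 and 0.48 in order. The strongest peak of NORAD, as those of NEAT1 and MALAT1, was its most 5' one.

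**Figure D3:**
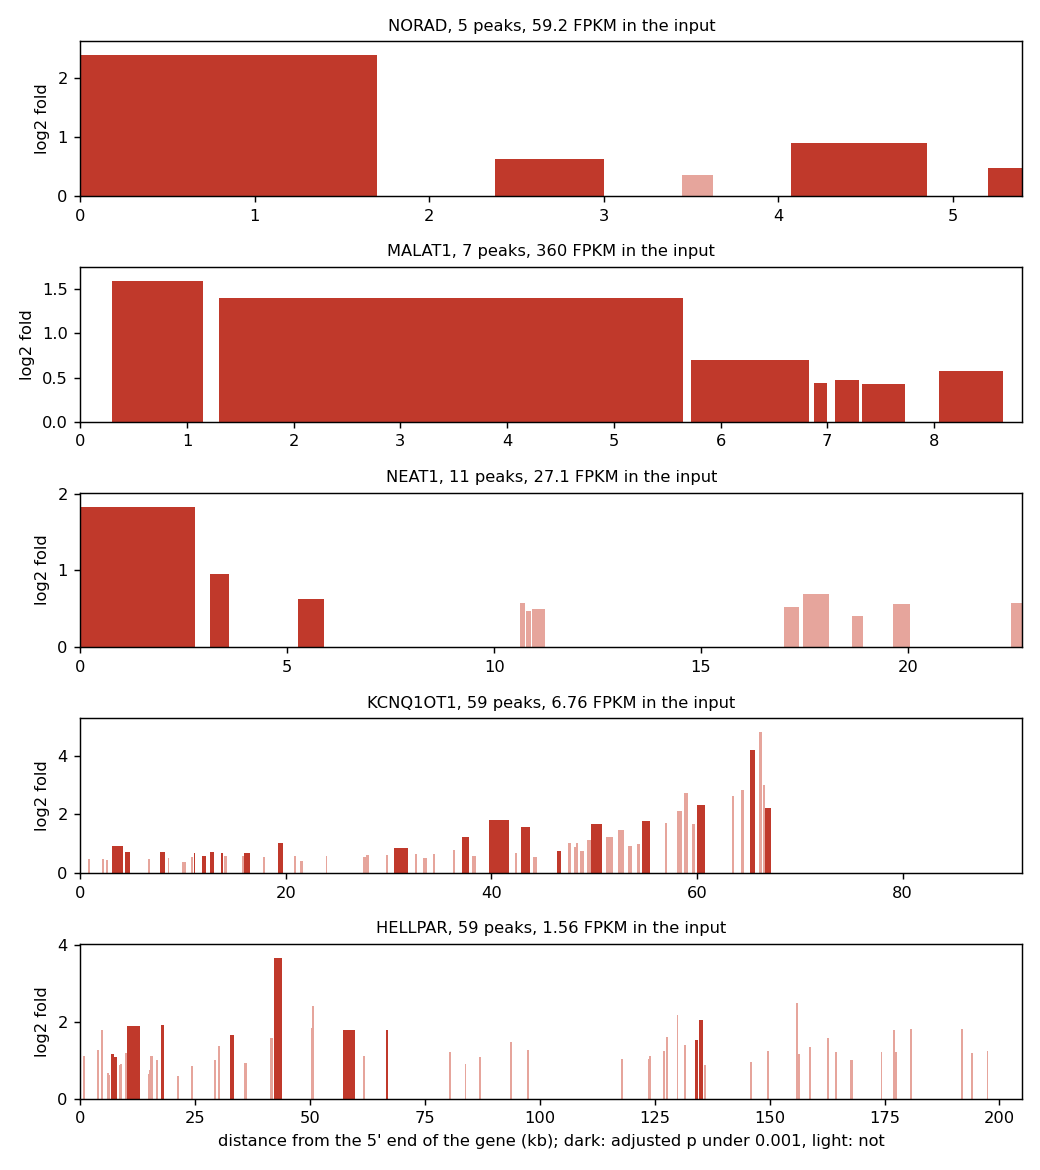
Non-coding exon peaks of NORAD, MALAT1, NEAT1, KCNQ1OT1 and HELLPAR by distance from the 5' end of the gene in kb, with the log2 fold of IP over input as the height; dark bars have an adjusted p under 0.001, and very narrow peaks are drawn at a minimum width. The first peak is the highest in NORAD (2.38), MALAT1 (1.59) and NEAT1 (1.83), and the 9 peaks of KCNQ1OT1 at 4-fold or more lie between 58.1 and 67.2 kb.

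FTX, an X-inactivation centre RNA, followed with 17 peaks with folds from 1.52 to 12.9, and JPX, its neighbour and an activator of X inactivation, had 12 with folds from 1.62 to 3.96. These genes overlap on opposite strands: 7 of the JPX peaks met 6 peaks of FTX. TTN-AS1, transcribed antisense to the titin gene, had 16 peaks, all of which met listed peaks of TTN, and a level of 0.666 FPKM against 4.22 FPKM for TTN. GARS1-DT had 14 peaks with folds from 2.09 to 17.1, none of which met a peak on the other strand. AC005670 had 13 and MUC20-OT1 had 12, and PPM1F-AS1, LINC01515, GOLGA2P5 and GABPB1-AS1 had 11 each. Among the hosts from FTX to GABPB1-AS1, PPM1F-AS1 had the lowest level, at 0.104 FPKM, and MUC20-OT1 the highest, at 5.99 FPKM.

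Among hosts at 1 FPKM or more and peaks of an adjusted p under 0.001, the 10 highest folds lay in lncRNAs, pseudogenes or transcripts of pseudogene loci, and 1 snRNA. DUXAP10, a transcribed pseudogene at 3.45 FPKM, was first with a log2 fold of 8.39 (adjusted p = 7.96e-05), in the strongest of its 9 peaks. AC006455, a processed pseudogene, had 8.18 (adjusted p = 4.02e-08), and AC133644, a lncRNA, had 7.35 (adjusted p = 0.000569). Z94721 had 5.57, with a far lower adjusted p of 3.06e-26, in a peak of 29391 nt that also holds the MIR3939 hairpin. Read counts per peak were not used here, so how few input reads lie behind the highest folds is not known. TCAF1P1, a pseudogene at 27.3 FPKM, had 5.45 and GOLGA2P7 had 5.13. LINC00632, whose locus gives the circular RNA CDR1-AS, had 5.05 at 2.07 FPKM. RNU1-2 had 4.89, LINC01270 had 4.86 and AC005670 had 4.45.

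The 10 hosts of highest level were small structural RNAs and 1 miRNA gene, and their folds ranged from 1.14 to 29.6, with 4 of them under 2-fold. RN7SL2, an RNA of the signal recognition particle, was listed at 50910 FPKM with a fold of 1.14, RN7SL3 at 4202 FPKM with 1.28, and RPPH1, the RNA of ribonuclease P, at 13641 FPKM with 1.45. The U1 spliceosomal RNA genes are near-identical copies, so that reads could be split among them, and their values are uncertain. RNU1-3 had 38792 FPKM and a fold of 1.36, whereas RNU1-2 had 1803 FPKM and 29.6, and RNU1-1 had 1132 FPKM and 8.17. RNU1-27P had 15.0-fold, RNVU1-28 had 2.23-fold and RNVU1-7 had 2.04-fold, so folds of these copies differed by over an order of magnitude. MIR3648-2, in a ribosomal DNA region, had 2585 FPKM and a fold of 10.6.

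A peak was listed more often for genes of higher level. Of lncRNA genes by RefSeq biotype, 23.3% of those under 0.1 FPKM carried a non-coding exon peak, and 53.1%, 73.6%, 80.0% and 84.6% of those from 0.1 to 1, 1 to 5, 5 to 20 and at 20 FPKM or more. Pseudogenes not annotated as transcribed stayed lower, at 6.09% under 0.1 FPKM and 38.5% (25.3 to 53.0) of the 52 genes at 20 FPKM or more. Pseudogenes annotated as transcribed lay between, with 56.5% (48.9 to 63.9) at 1 to 5 FPKM, where lncRNAs had 73.6% (68.7 to 78.1) and other pseudogenes 20.4% (17.1 to 24.0).

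At 1 FPKM or more, 316 of 423 lncRNA genes by RefSeq carried a non-coding exon peak, or 74.7% (70.3 to 78.8), as did 32.5% of all 3039 genes not counted as coding. The shares of the named groups that follow are to be read beside these. Of the nuclear and regulatory lncRNAs, 16 of the 19 at 1 FPKM or more carried a peak, and the median fold over the list's 219 peaks was 2.16, beside 3.00 over all non-coding exon peaks. The highest of these by their strongest peak with an adjusted p under 0.001 were KCNQ1OT1 with a log2 fold of 4.20, FTX with 3.69 and HELLPAR with 3.66, and the lowest were MALAT1 with 1.59 and DANCR with 1.46. H19, the imprinted fetal liver RNA, had 3 peaks with a highest fold of 2.19 at 3.12 FPKM, with no adjusted p under 0.001. HULC, named for its high level in liver cancer, was listed at 0.133 FPKM over a gene span of 858.6 kb and had 1 peak of 3.22-fold.

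Among miRNA host genes at 1 FPKM or more, 11 of 14 carried a peak, and the list's 60 peaks had a median fold of 2.66. MIR210HG, host of the hypoxia-induced miR-210, had a log2 fold of 3.97 (adjusted p = 3.93e-49), MIR22HG had 2.54 and MIR4435-2HG had 2.22. The lowest with an adjusted p under 0.001 were MIR4713HG with 1.89 and MIRLET7A1HG with 1.19. MIR17HG, host of the miR-17 to miR-92 cluster, had 3 peaks with a highest log2 fold of 0.95 and no adjusted p under 0.001.

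Of the snoRNA host genes, whose introns hold snoRNAs, 16 of 28 at 1 FPKM or more carried a peak listed under their own name. These 28 include the protein-coding genes CWF19L1, NOP56 and TAF1D, which had no non-coding exon peak. Peaks in exons of a coding gene are annotated to other classes. The 28 also include SNORD3A, itself a snoRNA, which had a peak, so the share is not one of non-coding hosts alone. The list had 44 peaks with a median fold of 1.90. SNHG29 had a log2 fold of 3.07 at 73.7 FPKM, SNHG16 had 2.31 at 22.1 FPKM and SNHG7 had 1.58 at 11.2 FPKM. SNHG1 had 0.68 and SNHG17 had 0.64. GAS5, a growth-arrest RNA at 16.3 FPKM, had 4 peaks with folds of at most 1.60 and no adjusted p under 0.001.

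By name, 102 of 118 antisense RNAs at 1 FPKM or more carried a peak (86.4%, 78.9 to 92.0), led by DDX11-AS1 with a log2 fold of 3.87, SNAI3-AS1 with 3.77 and ARHGAP5-AS1 with 3.37. BBOX1-AS1 with 0.96 and ZNF710-AS1 with 0.89 were the lowest of those with an adjusted p under 0.001. Divergent transcripts, which start beside a coding gene and run away from it, had a peak in 15 of 17, with WASL-DT at 3.75, CEBPA-DT at 3.45 and KDM7A-DT at 3.25, down to NUP50-DT at 1.66 and RAB30-DT at 1.05. LINC genes, the intergenic lncRNAs, had one in 83 of 112 (74.1%), led by LINC00632, LINC01270 and LINC00235 with 4.21, and ending with LINC02484 at 0.83 and LINC00564 at 0.81. Of pseudogenes, 373 of 1018 (36.6%) had one. DUXAP10, AC006455 and TCAF1P1 led these, and RPLP0P6 with 0.53 and RPS3AP6 with 0.51 were the lowest. Only 5 of 20 small structural RNAs of a fixed list had one: RNU1-1 with 3.03, RNU6ATAC with 1.26, RPPH1 with 0.53, RN7SL3 with 0.36 and RN7SL2 with 0.19. That list holds RNU1-1 but not the other U1 copies named above, which also had peaks. Over all peaks of each of these groups the median fold was 2.91 in antisense RNAs, 3.77 in divergent transcripts, 3.42 in LINC genes, 3.01 in pseudogenes and 1.45 in the small structural RNAs.

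Peaks listed under small RNAs were often larger than the small RNA. Of the 89, 53 were longer than their gene, including 21 of the 25 snoRNA peaks and 13 of the 14 miRNA peaks. Of these 53, 52 lay wholly inside the span of another, longer gene on the same strand, and in none of the 52 was the shortest such gene coding. That gene had a median level of 3.83 FPKM, against 0.646 FPKM for the small RNAs.

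SNORD22, a snoRNA gene within SNHG1, carried the strongest of the 25 snoRNA peaks, with a log2 fold of 2.12 (adjusted p = 3.72e-157) in 426 nt, while the peak listed under SNHG1 itself had 0.68. SNORD27 and SNORD30 carried further peaks inside SNHG1. SNHG6, SNHG25 and SNHG32 had no peak under their own names, but SNORD87 (0.69), SNORA50C (0.68) and SNORD48 (0.74) carried peaks inside them, and SCARNA17 (2.03) and SCARNA15 (2.32) did so inside SNHG22 and SNHG21. Counting these, 21 of the 28 members of the snoRNA host list at 1 FPKM or more held a non-coding exon peak. The coding genes CWF19L1, NOP56 and TAF1D again count among those without. Among miRNA peaks, MIR612 lay inside NEAT1, MIR16-1 and MIR3613 inside DLEU2 and MIR570 inside MUC20-OT1. MIR181A2 lay inside MIR181A2HG, which had no peak under its own name.

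Where a coding parent was found by name, most processed pseudogenes with a peak were below it in level and above it in fold. Of 534 such hosts, 319 had a coding parent by name, and 307 of these parents (96.2%, counted over hosts) had a listed peak too. That share is close to the background, since 97.8% of coding genes from 5 to 20 FPKM and 93.7% of those at 20 FPKM or more carried a peak. Counted once each, 96.4% of the 111 parents at 20 FPKM or more did. Where both levels were listed the pseudogene was below the parent in 235 of 245, with medians of 0.987 and 33.2 FPKM. Its strongest peak was above the parent's in 210 of 307, with median log2 folds of 1.75 and 1.16. GAPDHP21, at 1.80 FPKM, had 4.21 against 0.53 for GAPDH at 861 FPKM, and KRT8P3, at 3.59 FPKM, had 4.15 against 1.42 for KRT8. EEF1A1P5, the pseudogene of highest level at 223 FPKM, had 0.58, below the 1.03 of EEF1A1. Reads of such copies can be shared with the parent, so these values are uncertain, and the part played by shared reads or by the level was not tested.

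The peaks had a median listed length of 476 nt (451 to 491), from 101 to 334269 nt, counted from the first to the last base with introns included. That was close to the 526 nt of 3' UTR peaks and below the 1376.5 nt of 5' UTR peaks and 1759 nt of coding exon peaks. Intron peaks were shorter, with a median of 226 nt. A length over 2000 nt was listed for 19.7%. Of those up to 2000 nt, 80.7% had a length that was 1 more than a multiple of 25 nt. The adjusted p was under 0.001 in 3.80% of the 237 peaks of 101 nt, in 40.6% of those from 301 to 600 nt and in 78.6% of the 751 peaks from 601 to 1000 nt. The share was lower again in longer peaks, at 73.4% from 1001 to 2000 nt and 57.4% from 2001 to 10000 nt. The median fold was 2.28 at 101 nt, 4.19 from 1001 to 2000 nt and 3.19 from 2001 to 10000 nt.

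Along the host gene the peaks were spread more evenly than UTR peaks, as were coding exon and intron peaks. Each 10% of the gene held 5.18% to 14.5% of the coding exon peaks and 6.91% to 15.0% of the intron peaks. The midpoint of the non-coding exon peaks lay at a median of 50.2% of the gene span, against 92.8% for 3' UTR peaks and 13.9% for 5' UTR peaks. Of the non-coding exon peaks, 15.3% (14.4 to 16.3) lay in the final 10% of the gene and 11.9% (11.1 to 12.8) in the first 10%, where the final 10% held 56.9% of 3' UTR peaks. The stretch just before the middle held 13.1%, and 18.5% of the peaks covered over 50% of their gene. In hosts of 2000 nt or more the final 10% held 19.3% and the first 10% held 14.9%.

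**Figure D4:**
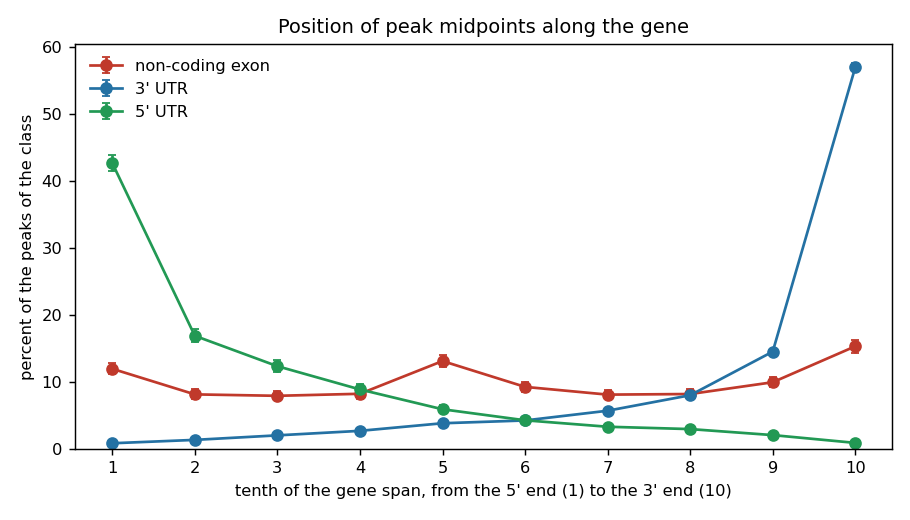
Percent of the peaks of each class by the stretch of the gene span, in steps of 10%, that holds the midpoint, from the 5' end to the 3' end, with 95% exact intervals. Non-coding exon peaks hold between 7.91% and 15.3% in every stretch, 3' UTR peaks reach 56.9% in the last and 5' UTR peaks 42.6% in the first.

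With genes called coding by RefSeq or by a listed coding transcript, coding gene spans overlapped many of the peaks, mostly on the other strand. Peaks in the exons or UTRs of a coding gene fall in other classes. The rule itself thus leaves little overlap on the same strand and few coding hosts. No such overlap was counted for the other classes. Of the 5749 peaks, 2457 (42.7%, 41.5 to 44.0) overlapped the span of a coding gene by at least 1 base. In 2386 (41.5%, 40.2 to 42.8) this was on the other strand only, in 55 (0.957%) on the same strand only and in 16 on both. These shares depend on how genes were called coding, as 46.3% of the hosts matched no RefSeq biotype. With unmatched genes counted as coding, 64.6% of the peaks overlapped a coding gene, 22.1% on the other strand only, and 39.6% had a coding host. That setting makes each peak of an unmatched host overlap its own host on the same strand. In the peak list all the host transcripts have a non-coding biotype, and 0 hosts were listed with a coding transcript elsewhere. For hosts at 1 FPKM or more the overlap was 25.2%, with 23.4% on the other strand only, and without peaks that met a listed peak on the other strand it was 22.8%, with 21.3% on the other strand only. The host itself was coding by RefSeq for 10 peaks (0.174%) in 6 genes, CRYZL2P-SEC16B, ERVH48-1, MYH16, NBPF8, PPIAP40 and RPSAP58. Those at 5 FPKM or more with an adjusted p under 0.001 were NBPF8, with a log2 fold of 2.50, and RPSAP58, with 0.73 and 0.54.

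Peaks that overlapped a coding gene on the other strand only had a lower median fold than peaks that overlapped none, 2.70 (2.64 to 2.79) against 3.30 (3.19 to 3.39), and hosts of lower level, at 0.428 against 0.899 FPKM. Peaks with an adjusted p under 0.001 made up 44.2% of the first group and 41.8% of the second. By biotype, overlap on the other strand only was most common in TEC transcripts (50.7%) and lncRNAs (47.6%), and was found in 29.5% of processed pseudogene peaks and 8.66% of other pseudogene peaks.

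A listed peak on the other strand was overlapped by 1883 of the non-coding exon peaks, or 32.8% (31.5 to 34.0), against 10.5% (10.1 to 10.9) of the 3' UTR peaks. In 1578 of them the partner was a peak of a coding gene. Among peaks with a coding gene on the other strand only, 65.5% met a peak there, against 9.33% of those with no coding gene. The library protocol in the labels marks strand, but no source used here says how strand entered peak calling.

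Where peaks up to 2000 nt shared at least 50% of both with a coding gene's peak, in 246 pairs, the folds lay close together. The median log2 fold was 1.44 for the non-coding and 1.36 for the coding peak, and 160 of the 246 pairs differed by at most 0.25. Over these pairs Pearson's r was 0.830 and Spearman's rho 0.863, as a description across regions that share their place and both libraries. The non-coding host was below the coding partner in level in 147 of 171 pairs with both levels, with medians of 0.287 and 4.65 FPKM. Reads counted on both strands and separate marks on both RNAs cannot be told apart from these values.

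**Figure D5:**
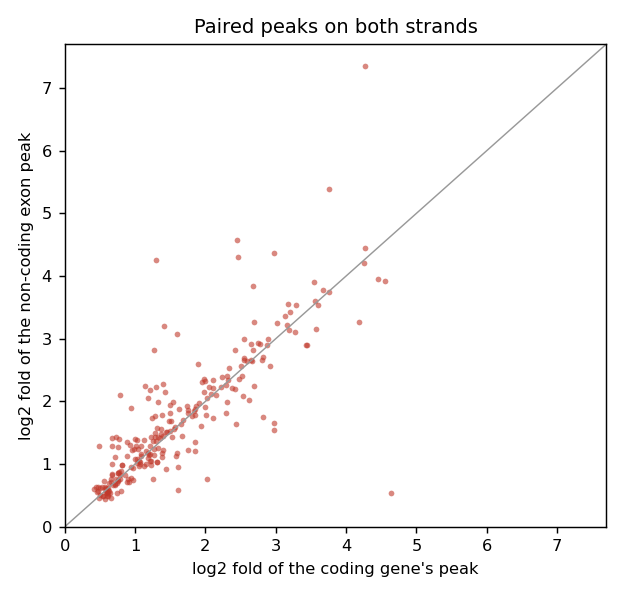
Log2 fold of IP over input of the non-coding exon peak (vertical) against that of the overlapping coding gene's peak on the other strand (horizontal) for 246 pairs, with the line of equal folds. Most pairs lie near the line, with 160 within 0.25.

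The strongest peaks with any overlap of a coding gene's peak on the other strand, at an adjusted p under 0.001, were led by AC113189 over TMEM102. Its log2 fold was 7.34 (adjusted p = 0.000575) against 4.26. AC026979 over LEPROTL1 had 7.34 (adjusted p = 0.000581) against 3.07, in peaks of unlike length, 251 nt and 47995 nt. AC008738 over CEBPA had 5.95 against 4.64. No level was listed for AC113189, AC026979 or AC008738. AC005609 over PCDHA5 had 5.63 against 4.50, and LDHAP2 over LYST had 5.38 against 3.76. CEBPA, a transcription factor of hepatocytes, was at 140 FPKM, and its non-coding neighbours on the other strand, AC008738 and CEBPA-DT, both carried strong peaks. At 1 FPKM or more, TMEM198B over DNAJC14 had 3.92 against 4.55, and AHSA2P over USP34 had 2.82 against 2.68. ZNF337-AS1 over ZNF337 had 2.40 against 2.52.

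All 8 hepatocyte markers checked had a level in the input, as the Huh-7 label would have it. AFP was at 2380 FPKM and ALB at 1202 FPKM, and the other 6 hepatocyte genes checked were listed between 17.6 and 631 FPKM. The leukocyte and endothelial markers PTPRC, CD3E, MS4A1, VWF, CDH5 and KDR had no listed level, and COL1A1, COL1A2 and PDGFRB were at 0.159, 1.17 and 1.46 FPKM.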

How the data were processed

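Peaks and levels came from 1 IP and 1 input library. Tools named in the submitters' processing notes, with no role or version, are HISAT2, StringTie, HOMER, edgeR, fastp and FastQC. No source used here names the peak caller, its settings or the build. Per the file headers, the authors' deposited peak list holds for each peak the IP to input ratio as log2, a raw and an adjusted p-value and the length. Input FPKM per gene come from a second deposited file, per the file headers. Libraries were strand-marked, per the labels' protocols. Linear folds were computed from the deposited log2 values. Listed starts count from 0, since 3007 lay 1 before their gene's start and none on it, so 1 was added. The files' miRNA genes lay at the GRCh38.p14 place in 533 of 537, and RefSeq sequences are of that build. Genes were coding by RefSeq (Ensembl ID to symbol or synonym) or by a coding transcript in the peak table, and 53.7% of hosts matched a RefSeq biotype. Shares carry exact 95% intervals, and medians carry order-statistic intervals. The overlap code was tested on simulated intervals. The genes named were the 10 hosts with most peaks, of highest fold and of highest level, the 3 highest and 2 lowest of each list and the strongest peaks in coding hosts or opposite coding peaks. Other genes were chosen after their values were seen, and a few genes the rule would name are not reported here. Members, lists and tests were chosen with earlier results of these data known. Python 3.11.15, pandas 2.3.3 and SciPy 1.17.1 were used.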

Additional observations from a re-analysis of the deposited data

How the results depend on the processing

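No paired analysis was possible because each group has 1 library. Of 41 values recomputed for 9 results, 12 stayed inside the 95% interval of the value reported. With peaks of at least 2-fold and adjusted p under 0.001 only, the share of all peaks in non-coding exons was 14.1%, the median fold 5.12, the share at 4-fold 64.5%, the median length 847 nt, the share of hosts with 1 peak 81.8% and the median host level 0.804 FPKM. With peaks of at most 2000 nt the share of all peaks was 13.0%, the median length 376 nt and the share of hosts with 1 peak 71.0%. In genes at 1 FPKM or more the share of all peaks was 5.11%, the median fold 2.44, the share at 4-fold 24.7%, the share in coding hosts 0.327%, the share overlapping a coding gene 25.2% (23.4% on the other strand only), the median length 501 nt, the share of hosts with 1 peak 53.8% and the median host level 2.25 FPKM. Without peaks that overlap a listed peak on the other strand, the share of all peaks was 8.83%, the share at 4-fold 37.4%, the share overlapping a coding gene 22.8% (21.3% on the other strand only), the median length 426 nt and the median host level 0.831 FPKM. With genes that matched no RefSeq entry counted as coding, 39.6% of the peaks had a coding host and 64.6% overlapped a coding gene, 22.1% on the other strand only. That setting makes each peak of the 46.3% of hosts without a match overlap its own host. The peak list gives these hosts non-coding biotypes. With at least 50% of the peak required to overlap, the shares were 38.5% and 37.4%. Some moves follow from the setting itself. A lower limit on fold raises the median fold and the share at 4-fold. In the same way a lower limit on level raises the median host level, and an upper limit on length lowers the median length. For the other moves the cause was not tested beyond the change in which peaks entered. The depth of both libraries is unknown, and no value has a replicate.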
